A study of Mus musculus with 9 samples.

Results

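Immunoglobulin gene segments are the pieces of DNA from which antibody genes are assembled, and reads on 254 of them were found in RNA from sorted colon macrophages. The table of normalized counts held 420 genes of the immunoglobulin heavy (Igh), kappa (Igk) and lambda (Igl) loci by name, once Ighmbp2, a helicase gene whose symbol only resembles them, was set aside. The segments described here are the 163 of these with a normalized count of at least 10 in at least 3 of the 9 libraries, among 14404 genes that passed the same threshold in a table of 42454. They comprise 69 variable (V), 4 joining (J) and 7 constant (C) segments of the heavy locus, 69 V, 5 J and 1 C of the kappa locus, and 3 V, 2 J and 3 C of the lambda locus. None of the 20 heavy-chain diversity (D) segments passed. Of the other 257 names, 166 were listed at 0 in every library and 91 had reads below the threshold. The last segments inside it were Ighv3-2, Igkv4-79 and Igkv14-126, whose third-highest normalized counts were 10.9, 11.01 and 11.6, and the first outside were Ighv1-84, Ighv4-2 and Ighv2-5 at 9.94, 9.12 and 8.81.

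The cells were lamina propria macrophages, sorted as Ly6C low and MHC class II positive from the colon of 6-week-old mice. The study compared 3 genotypes, with 3 libraries each: WT, p47phox-/- and gp91phox-/-. The proteins p47phox (gene Ncf1) and gp91phox (gene Cybb) are the organizer and the catalytic core of the phagocyte NADPH oxidase, the enzyme that makes superoxide, and the study asks how reactive oxygen species bear on the development of intestinal macrophages. Strain, sex, housing and the design of the knockout alleles are not given in the sources used here, nor is it stated that each library came from a separate animal.

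An antibody is built from a pair of heavy and a pair of light chains, and each light chain is either kappa or lambda. In developing B cells the RAG recombinase joins 1 V, 1 D and 1 J segment of the heavy locus and 1 V and 1 J segment of a light locus, so that each B cell clone carries its own combination, and the joined exon is spliced to a constant gene. The constant gene sets the class: Ighm encodes IgM, Ighd IgD, the Ighg genes IgG, Ighe IgE and Igha IgA, the class that dominates gut secretions. Naive B cells make IgM and IgD together from 1 transcript, switched cells make IgG or IgA, and plasma cells, the antibody secretors that are abundant in the gut lamina propria, hold far more immunoglobulin RNA than B cells. Macrophages do not rearrange these loci.

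All 163 segments matched the GENCODE M21 annotation of mouse build GRCm38 (mm10). The matched heavy segments lie on chromosome 12 from 113254830 to 116010093, on the minus strand, the kappa segments on chromosome 6 from 67555497 to 70726966, on both strands, and the lambda segments on chromosome 16 from 19061618 to 19260859, on the minus strand. V segments annotated as functional made up 139 of the 163, and 2 more, Ighv1-2 and Ighv3-2, were annotated as pseudogenes. Of the annotated V genes 139 of 216 (64.4%) passed the threshold, against 2 of 128 V pseudogenes (1.56%). A V segment consists of a leader exon and a V exon, and a J segment of a single short exon.

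The J segments are shown first because every rearranged transcript holds a J segment. Capitals mark a match to TGGGGNNNNGGNAC in heavy J segments and to TTCGGNNNNGGNAC in light J segments, where N is any base; these bases encode the conserved tryptophan or phenylalanine and the glycines of the J region.
Ighj1: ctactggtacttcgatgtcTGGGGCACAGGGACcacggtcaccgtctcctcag
Ighj2: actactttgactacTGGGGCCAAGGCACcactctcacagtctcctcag
Ighj3: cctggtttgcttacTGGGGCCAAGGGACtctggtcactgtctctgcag
Ighj4: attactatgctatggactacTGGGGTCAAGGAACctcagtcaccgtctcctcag
Igkj1: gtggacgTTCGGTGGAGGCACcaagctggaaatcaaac
Igkj2: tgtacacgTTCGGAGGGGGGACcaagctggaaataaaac
Igkj3: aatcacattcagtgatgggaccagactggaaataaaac
Igkj4: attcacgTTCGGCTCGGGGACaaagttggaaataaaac
Igkj5: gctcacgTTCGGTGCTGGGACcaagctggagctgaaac
Iglj1: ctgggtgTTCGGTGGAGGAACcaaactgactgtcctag
Iglj2: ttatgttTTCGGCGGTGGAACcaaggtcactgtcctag
The first motif was present in 4 of 4 heavy J segments and the second in 4 of 5 kappa segments, all but Igkj3, and in both lambda segments that passed. On the opposite strand of the J segments neither motif was found, and no J segment held both. In the first 38 bases of 141715 annotated transcripts, on either strand, the heavy motif occurred in 0.043% and the light motif in 0.0212%.

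Next are the 6 V segments on which the comparisons below turn, each as the last 300 bases of its annotated coding sequence, 5′ to 3′. Iglv1 and Iglv2, the main lambda V segments, differ by 11 substitutions in 351 coding bases (96.9% identity), and capitals mark the 8 of these that fall in the bases shown. In the other 4 segments capitals mark bases inside a stretch of 50 that another immunoglobulin segment also holds. A read confined to such a stretch matches more than 1 segment, while a read or read pair that runs past it may be placed. Ighv3-5 and Ighv6-3 are the V segments whose level changed in p47phox-/-, Igkv1-110 had the largest fall in gp91phox-/-, and Igkv6-25 led the kappa V reads left in gp91phox-/-.
Iglv1: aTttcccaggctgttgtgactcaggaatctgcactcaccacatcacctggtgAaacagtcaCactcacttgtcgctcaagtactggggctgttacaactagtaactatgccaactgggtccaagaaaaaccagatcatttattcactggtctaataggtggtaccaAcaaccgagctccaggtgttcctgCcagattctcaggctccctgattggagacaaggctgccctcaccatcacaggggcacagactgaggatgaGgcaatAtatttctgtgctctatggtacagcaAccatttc
Iglv2: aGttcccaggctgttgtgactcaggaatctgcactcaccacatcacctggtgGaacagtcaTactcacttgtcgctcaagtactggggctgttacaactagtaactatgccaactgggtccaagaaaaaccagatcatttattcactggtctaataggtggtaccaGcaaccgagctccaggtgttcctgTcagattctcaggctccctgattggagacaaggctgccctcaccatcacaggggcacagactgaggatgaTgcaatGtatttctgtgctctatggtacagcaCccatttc
Ighv3-5: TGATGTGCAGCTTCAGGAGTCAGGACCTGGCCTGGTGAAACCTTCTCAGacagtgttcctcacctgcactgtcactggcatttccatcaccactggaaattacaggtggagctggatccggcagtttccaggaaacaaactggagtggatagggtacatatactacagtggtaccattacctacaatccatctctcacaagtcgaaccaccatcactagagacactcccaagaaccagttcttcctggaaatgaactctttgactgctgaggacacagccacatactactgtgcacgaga
Ighv6-3: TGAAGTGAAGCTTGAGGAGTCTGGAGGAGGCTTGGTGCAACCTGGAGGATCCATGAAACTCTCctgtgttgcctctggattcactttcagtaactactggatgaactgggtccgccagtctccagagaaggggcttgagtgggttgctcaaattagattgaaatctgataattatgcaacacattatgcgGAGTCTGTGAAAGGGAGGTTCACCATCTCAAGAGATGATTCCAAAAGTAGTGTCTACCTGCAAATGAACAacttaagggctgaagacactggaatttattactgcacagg
Igkv1-110: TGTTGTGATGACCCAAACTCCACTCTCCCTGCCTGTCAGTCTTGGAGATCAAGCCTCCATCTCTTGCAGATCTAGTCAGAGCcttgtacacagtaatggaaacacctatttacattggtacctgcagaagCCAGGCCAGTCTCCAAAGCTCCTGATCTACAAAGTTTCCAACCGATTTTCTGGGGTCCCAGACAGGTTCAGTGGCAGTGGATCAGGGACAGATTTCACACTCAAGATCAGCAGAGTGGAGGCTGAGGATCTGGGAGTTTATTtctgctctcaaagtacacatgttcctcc
Igkv6-25: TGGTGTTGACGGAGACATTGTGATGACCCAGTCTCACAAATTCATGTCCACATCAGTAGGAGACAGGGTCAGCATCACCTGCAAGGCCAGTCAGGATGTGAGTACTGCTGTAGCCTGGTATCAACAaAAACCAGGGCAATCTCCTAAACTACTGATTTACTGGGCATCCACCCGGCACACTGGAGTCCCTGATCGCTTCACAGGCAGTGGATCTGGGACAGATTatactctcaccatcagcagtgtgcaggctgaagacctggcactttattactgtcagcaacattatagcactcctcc
The genes lie at chr16:19085017-19085500 and chr16:19260401-19260859 for Iglv1 and Iglv2, chr12:114262652-114263087 and chr12:114391712-114392169 for Ighv3-5 and Ighv6-3 (all minus strand), and chr6:68270485-68271267 and chr6:70215400-70215957 for Igkv1-110 and Igkv6-25 (plus strand). Shared stretches covered 65 coding bases of Ighv3-5, 141 of Ighv6-3, 283 of Igkv1-110 and 249 of Igkv6-25, so by this measure the kappa pair has less distinct sequence than the heavy pair.

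Libraries held 31141107 to 52797368 reads. Genes with a read numbered 15825 to 17280 in WT and 18115 to 18760 in gp91phox-/-, against 17754, 14323 and 14268 in p47phox-/-, so p47phox-/- replicates 2 and 3 stand apart. Ncf1 held 8990 to 10815 normalized counts in WT, 12136 to 13617 in gp91phox-/- and 2718 to 3733 in p47phox-/-. Cybb, an X-linked gene, was like the X-linked Btk and Ssr4 listed at 0 in every library, so the gp91phox-/- label could not be checked. The marker counts that follow stand beside the shares of all 14404 genes tested that limma called (adjusted p under 0.05). In gp91phox-/- versus WT these were 4.53% lower and 2.53% higher, and in p47phox-/- versus WT 0.5% lower and 0.625% higher. Summed macrophage markers (12 genes, Csf1r, Adgre1 and C1qa among them, 1 of them higher and 0 lower in gp91phox-/- versus WT) were at 575732 to 763799 normalized counts in WT, 658881 to 856955 in p47phox-/- and 741239 to 864313 in gp91phox-/-, so the defining genes of the labelled cell type were abundant in every library. Summed markers of B cells (Cd79a, Ms4a1, Pax5, Cd22, Cr2) were at 8579.9 to 13586 in WT and 7265 to 11176 in p47phox-/-, and at 1496 to 2065 in gp91phox-/-, with 5 of 5 lower in gp91phox-/- versus WT, and with Ms4a1, Pax5 and Cr2 at 0 in gp91phox-/- replicate 1. Most of the gp91phox-/- sum was Cd22 (1455 to 2059). Summed markers of plasma cells (Jchain, Mzb1, Sdc1, Tnfrsf17, Derl3, Prdm1) were at 13387 to 27751, 10475 to 19552 and 7174 to 9844, with 3 of 6 lower (Jchain, Mzb1, Derl3). Jchain, given below, was a small part of the gp91phox-/- sum, so the sum fell by less than Jchain did. Conventional dendritic cell markers summed to 3617 to 6795, 4621 to 5935 and 1208 to 1860, with 4 of 7 lower. In p47phox-/- versus WT none of these 3 lists had a changed gene. Fibroblast markers summed to 5866 to 7751 in WT, 9566 to 16150 in p47phox-/- and 8628 to 10402 in gp91phox-/-, with 2 of 7 higher in p47phox-/- (Col3a1 and Sparc) and 1 of 7 in gp91phox-/- versus WT. Of 5 plasmacytoid dendritic cell markers 1 was higher in p47phox-/- (Siglech) and 1 lower in gp91phox-/-, of 6 tested T cell markers 1 was lower in gp91phox-/- (Lck), and of 7 epithelial markers 0 passed in either comparison with WT. The part of these cells in the results below was not tested.

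Reads on immunoglobulin segments were a far smaller part of the gp91phox-/- libraries than of the others. In replicate order they made up 0.574%, 1.51% and 0.444% of reads in WT, 0.689%, 0.222% and 0.497% in p47phox-/-, and 0.0325%, 0.0501% and 0.0218% in gp91phox-/- (95% Wilson intervals of at most 0.00388 percentage points to each side, counting error only). Means were 0.844% ± 0.584 (SD, n = 3), 0.469% ± 0.235 (SD, n = 3) and 0.0348% ± 0.0143 (SD, n = 3). Each gp91phox-/- library lay below all 6 others, while WT and p47phox-/- overlapped. Summed normalized counts were 243515 ± 156583, 138776 ± 65593 and 10804 ± 4792 (SD, n = 3 each), so that the WT mean was 22.5 times and the p47phox-/- mean 12.8 times the gp91phox-/- mean. WT replicate 2 carried the largest sum, and without it the WT mean share was 0.509%, the WT sum 14.2 times the gp91phox-/- sum, and 1.11 rather than 1.75 times the p47phox-/- sum. In bulk RNA, fewer cells of a type and less RNA per cell cannot be told apart.

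**Figure D1:**
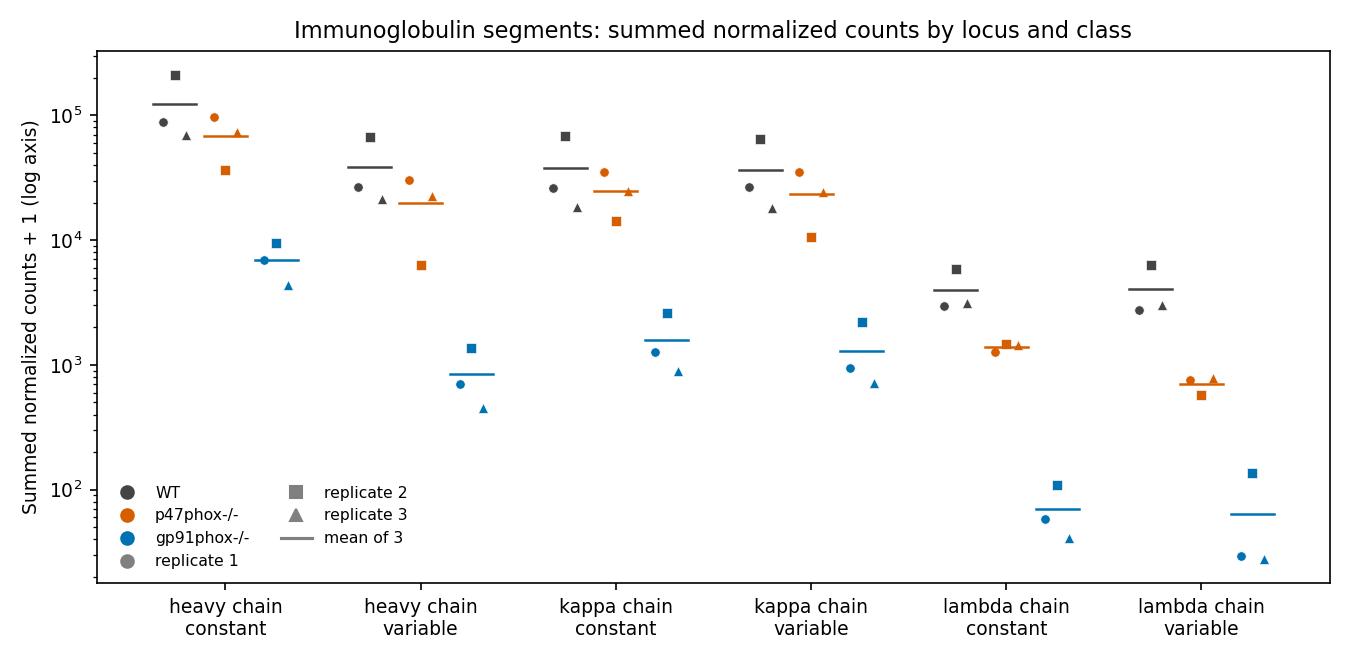
Summed normalized counts plus 1 (log axis) of the constant and variable segments of each locus, 1 symbol per library and a line at the mean of 3. In all 6 classes the 3 gp91phox-/- libraries sit below every WT and p47phox-/- library; the WT lambda sums also lie above those of p47phox-/-.

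The ratio differed between the loci by an amount that was not tested. The WT mean sum was 20.7 times the gp91phox-/- mean for heavy, 25.7 times for kappa and 61.1 times for lambda segments. Without WT replicate 2 these ratios were 13.2, 15.5 and 44.97, and without gp91phox-/- replicate 2 they were 25.9, 38.8 and 105. Within the heavy locus the summed constant genes were 17.7 times and the summed V segments 47.5 times as high in WT as in gp91phox-/-, or 11.4 and 29.8 times without WT replicate 2.

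Segment by segment, gp91phox-/- against WT gave 68 of 163 segments lower and 0 higher in limma (adjusted p under 0.05), where 7.05% of all 14404 genes tested passed, 4.53% lower and 2.53% higher. The median log2 fold change, on the log2(normalized count + 1) scale as are all such values here, was -4.49 over the segments and 0.01 over all genes tested. For 103 segments every gp91phox-/- library lay below every WT library, which held for 18.2% of all genes. The threshold acts on this count: 161 of the 163 pass on WT and p47phox-/- libraries alone, and 79 reach 10 in no gp91phox-/- library. Only 16 segments reached 10 in all 3 gp91phox-/- libraries, against 106 in WT and 101 in p47phox-/-. Values above 0 were seen for 4 segments, none of which passed the test, namely Igkv6-25 (2.26), Igkv8-21 (1.498), Ighv3-5 (0.38) and Ighv4-1 (0.06), named after their values were seen. By role, 9 of 11 C, 53 of 141 V and 6 of 11 J segments fell. By locus these were 28 of 80 heavy segments (median -4.46), 34 of 75 kappa (-4.48) and 6 of 8 lambda (-6.10).

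**Figure D2:**
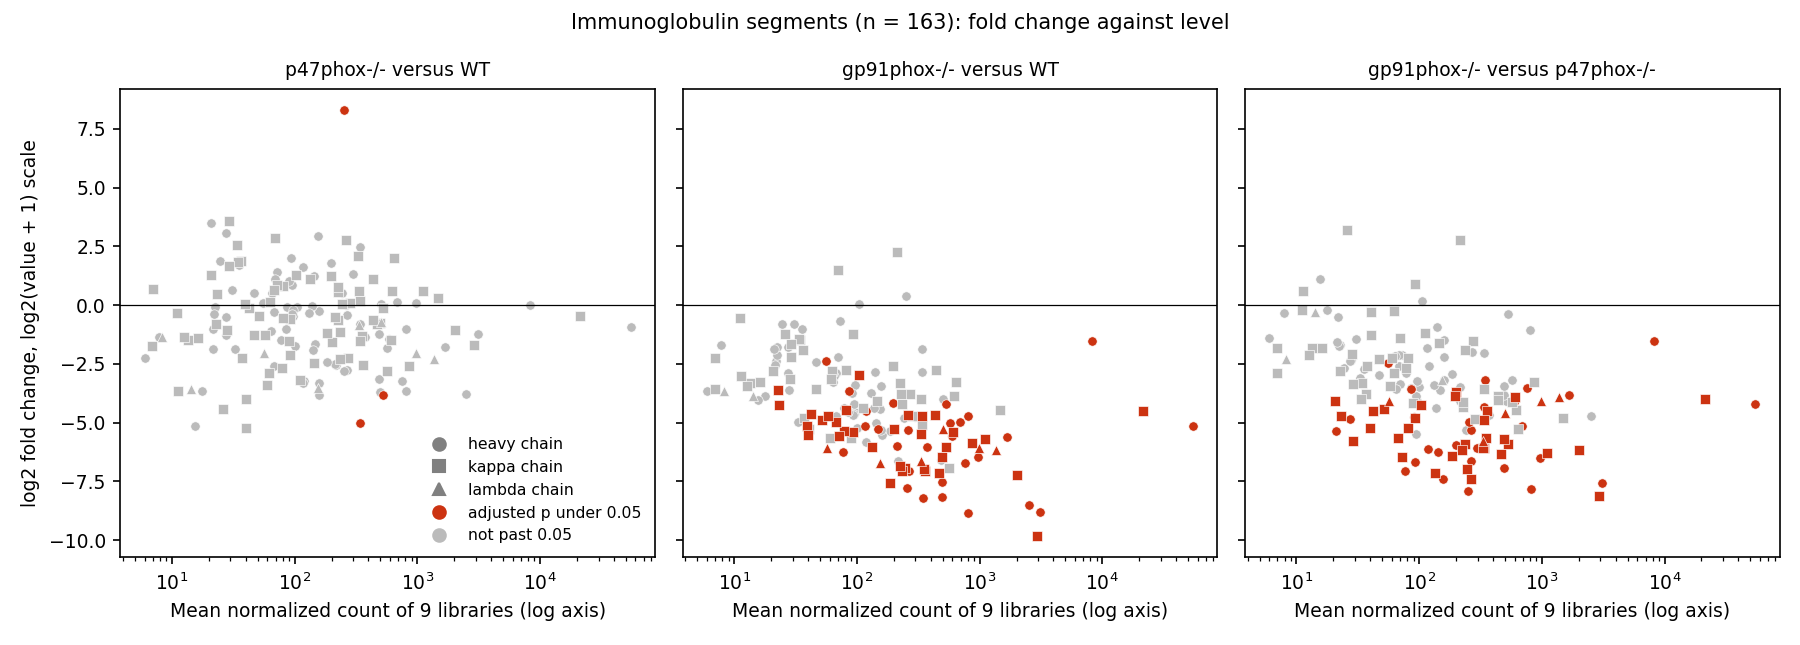
log2 fold change of each of the 163 segments (vertical axis, log2(value + 1) scale) against its mean normalized count over the 9 libraries (log axis) in the 3 comparisons; red marks adjusted p under 0.05 and symbols mark the locus. In both gp91phox-/- comparisons nearly all points lie below 0 and every red point does, whereas in p47phox-/- versus WT points lie on both sides of 0 and 3 are red.

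Among the heavy constant genes, 5 of 7 fell in gp91phox-/- versus WT, and Igha had the most reads in WT. Igha (chr12:113254830-113260236, minus strand), which encodes the heavy chain of IgA, held 75935, 185267 and 56997 in WT, 82375, 21649 and 63944 in p47phox-/- and 2525, 5292 and 1403 in gp91phox-/- (normalized counts in replicate order, as below). All 3 gp91phox-/- values lie under the lowest of the other 6 libraries, that of p47phox-/- replicate 2 (21649). The log2 fold change against WT was -5.13, SE 0.56, adjusted p = 0.000162. Ighm (chr12:113418558-113422730), the gene of IgM, held 8673, 14028 and 8960.03 in WT, 11727, 11707 and 8139 in p47phox-/- and 4257, 3738 and 2858 in gp91phox-/-. The gp91phox-/- libraries were again all below the rest, but by a small step (-1.53, SE 0.22, adjusted p = 0.00112).

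Ighd (chr12:113406604-113416324), which lies next to Ighm and is co-expressed with it in naive B cells, held 579, 1569 and 845 in WT, 989.6, 1336 and 775 in p47phox-/- and 19.1, 23.5 and 48.3 in gp91phox-/-. It fell by far more than its neighbour, with a log2 fold change of -4.98, SE 0.396, adjusted p = 1.09e-05. The ratio of Ighm to Ighd was 8.94 to 15.0 in WT, 8.76 to 11.9 in p47phox-/- and 59.2 to 223 in gp91phox-/-. Cd79a, the signalling partner of the membrane B cell receptor, was at 5.46, 10.3 and 15.2 in gp91phox-/- against 2729 to 5299 in WT, and Ms4a1, Pax5 and Cr2 were at 0 to 10.7 there. Ighm thus stood at 2858 to 4257 in gp91phox-/- libraries in which these B cell genes were near 0. Not all B cell genes were: Cd22 made up most of the gp91phox-/- marker sum of 1496 to 2065. Cd72 and Blnk, described below, also kept reads, so these libraries were not free of transcripts on the B cell lists.

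The IgG genes differed among themselves. Ighg2b (chr12:113302965-113307933) held 2304, 7678 and 1693 in WT, 1745, 987 and 417 in p47phox-/- and 78.3, 47.1 and 67.98 in gp91phox-/-, with a log2 fold change in gp91phox-/- versus WT of -5.600, SE 0.55, adjusted p = 6.12e-05. Ighg3 (chr12:113356224-113361232) held 1130.3, 1101 and 733 in WT, 31.1, 65.1 and 11.4 in p47phox-/- and 11.8, 1.81 and 0 in gp91phox-/-. It fell in both knockouts, by log2 fold changes of -5.03, SE 0.84, adjusted p = 0.01498 in p47phox-/- versus WT and -8.200, SE 0.84, adjusted p = 9.30e-05 in gp91phox-/- versus WT. Ighg2c (chr12:113285325-113288932) held 218, 1223 and 187 in WT, 475, 445 and 42.9 in p47phox-/- and 26.4, 425 and 10.7 in gp91phox-/-, and the 425 of gp91phox-/- replicate 2 overlaps WT (-2.84, SE 1.24, adjusted p = 0.205). Without that library it fell (adjusted p = 0.03703). Ighg1 (chr12:113325240-113330523) was low throughout, at 37.3, 24.97 and 49.4 in WT, 39.4, 24.6 and 0 in p47phox-/- and 7.28, 10.9 and 2.68 in gp91phox-/-, and did not pass the test (-2.37, SE 1.21, adjusted p = 0.287). Ighe, below the threshold, had reads in WT replicate 2 alone (2.94).

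**Figure D3:**
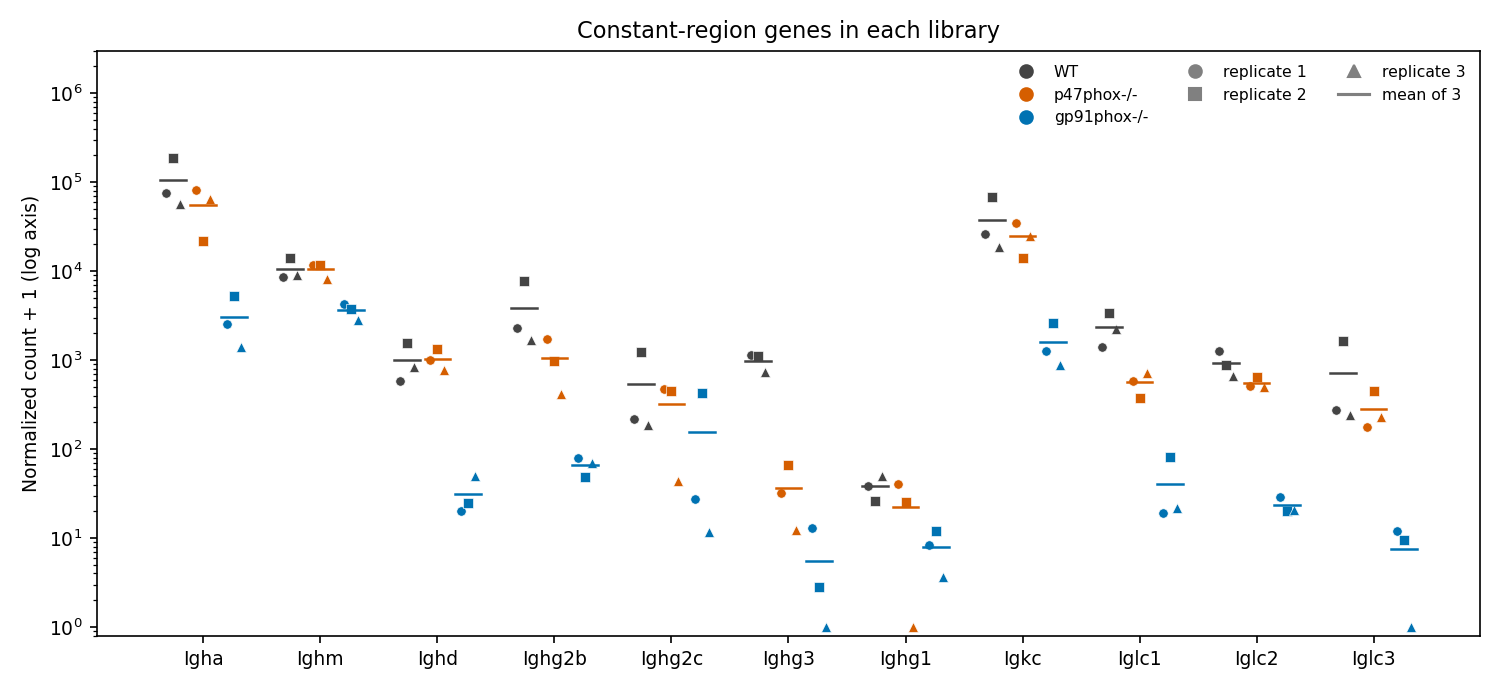
Normalized count plus 1 (log axis) of each constant gene in each library, with a line at the mean of 3. Of the genes that fell in gp91phox-/-, Ighm has the smallest gap to the other genotypes, and Ighg3 is the one gene for which p47phox-/- also lies far below WT.

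Levels of different constant genes were compared per kilobase of annotated exon. On that scale Igha made up 81.7%, 84.7% and 77.3% of the heavy constant total in WT and 79.9%, 51.5% and 83.0% in p47phox-/-, but 28.9%, 45.9% and 25.02% in gp91phox-/-. Ighm made up 13.2%, 9.08% and 17.2% in WT and 16.1%, 39.4% and 14.9% in p47phox-/-, but 69.0%, 45.9% and 72.1% in gp91phox-/-. The shares in WT and in gp91phox-/- do not overlap for either gene, and an exact permutation test of 3 against 3 libraries cannot give a two-sided p below 0.1. Ighm itself was lower in gp91phox-/- (per-kilobase mean 1918 ± 375 against 5596 ± 1597 in WT, SD, n = 3), while Igha went from 39755 ± 25952 in WT to 1152 ± 750 (SD, n = 3), the larger step. In WT the order by per-kilobase mean was Igha, Ighm, Ighg2b, Ighd, Ighg2c, Ighg3 and Ighg1. Within each WT library Igha, Ighm and Ighg2b came first in that order and Ighg1 came last, while the order of Ighd, Ighg2c and Ighg3 varied.

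The light constant genes fell as well. Igkc (chr6:70726435-70726966, plus strand), the only kappa constant gene, held 26262, 68094 and 18443 in WT, 34955, 14214 and 24824 in p47phox-/- and 1262, 2618 and 889 in gp91phox-/-, with a log2 fold change in gp91phox-/- versus WT of -4.48, SE 0.48, adjusted p = 0.000142. Iglc1 (chr16:19061618-19062071) held 1410.4, 3419.5 and 2235 in WT, 586, 379 and 719 in p47phox-/- and 18.2, 80.2 and 20.6 in gp91phox-/-, and its groups are fully separated in the order WT, p47phox-/-, gp91phox-/-. The log2 fold change in gp91phox-/- versus WT was -6.097, SE 0.495, adjusted p = 1.31e-05, and the lower p47phox-/- level did not pass the test (-2.02, SE 0.495, adjusted p = 0.0782). Iglc2 (chr16:19198396-19200351) held 1258, 884 and 655 in WT, 506, 649 and 496 in p47phox-/- and 28.2, 19.3 and 19.7 in gp91phox-/-, and changed by -5.29, SE 0.28, adjusted p = 5.43e-07. Iglc3 (chr16:19065230-19065681) held 273, 1618 and 240.5 in WT, 175, 446 and 227 in p47phox-/- and 10.9, 8.45 and 0 in gp91phox-/-, with -6.62, SE 0.91, adjusted p = 0.000886. Iglc2 and Iglc3 are 96.2% identical and share 14.3% of their stretches of 50 bases, so the split of reads between them is uncertain, while Iglc1 shares none. The lambda constant genes lie on the minus strand.

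Of the 15 V segments with the highest means in their loci, 13 fell in gp91phox-/- versus WT, against 53 of all 141 V segments and 4.53% of all genes. These means over 9 libraries come almost wholly from WT and p47phox-/-, so the choice favours segments that are lower in gp91phox-/-. The 13 are therefore a description and not support for the fall. In the heavy locus Ighv1-81 held 5067, 9181 and 4419 in WT, 4597, 938 and 3576 in p47phox-/- and 27.3, 80.2 and 0 in gp91phox-/-, which put every gp91phox-/- library far below the lowest of the other 6. Its log2 fold change against WT was -8.805, SE 1.196, adjusted p = 0.000817. Ighv1-64 held 1791, 1439.9 and 1059.8 in WT, 1326, 1485 and 167 in p47phox-/- and 0, 1.81 and 8.95 in gp91phox-/- and changed by -8.85, SE 0.85, adjusted p = 5.53e-05. Ighv9-3 held 775, 20386 and 385 in WT, 983, 45.7 and 48.6 in p47phox-/- and 30.9, 3.02 and 0 in gp91phox-/- (-8.501, SE 1.58, adjusted p = 0.00632, or 0.0596 and not called without the mean-variance trend). These 3 segments fell to near 0 in gp91phox-/-, but Ighv9-3 owed most of its WT reads to replicate 2, whereas Ighv1-81 and Ighv1-64 were high in all WT libraries. Ighv1-26 held 612, 3132 and 374 in WT, 1946, 177 and 2438 in p47phox-/- and 40.9, 6.03 and 2.68 in gp91phox-/- (-6.45, SE 1.08, adjusted p = 0.00344), and Ighv7-3 held 607, 2375 and 3124 in WT, 196, 84.4 and 332 in p47phox-/- and 10.9, 83.9 and 2.68 in gp91phox-/- (-6.74, SE 0.95, adjusted p = 0.00112). Ighv3-6 held 1689.6, 2607 and 1726 in WT, 306, 18.5 and 635 in p47phox-/- and 51.9, 171 and 43.8 in gp91phox-/-, with -4.73, SE 0.97, adjusted p = 0.0114. This call was lost without WT replicate 2 (adjusted p = 0.0536) and without the mean-variance trend (adjusted p = 0.0800). The p47phox-/- libraries of Ighv3-6 and Ighv7-3 were also below all WT libraries without passing the test.

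In the kappa locus Igkv1-110 held 7237, 9137 and 2789 in WT, 4019.6, 547 and 2471 in p47phox-/- and 7.28, 9.65 and 1.79 in gp91phox-/-. Its log2 fold change in gp91phox-/- versus WT, -9.83, SE 0.69, adjusted p = 5.12e-06, was the lowest of all 14404 genes tested. Igkv1-117, 97.2% identical to it, held 2229, 7761 and 2198 in WT, 3647, 900.3 and 1325 in p47phox-/- and 55.5, 5.43 and 30.4 in gp91phox-/- and fell too (-7.22, SE 0.74, adjusted p = 9.88e-05). Igkv10-96 had a coefficient of variation of 27.2% in WT, 27.5% in p47phox-/- and 61.8% in gp91phox-/-, with 1059, 1158 and 1722 in WT, 2061, 2476 and 1398 in p47phox-/- and 45.5, 18.1 and 16.1 in gp91phox-/-, and changed by -5.696, SE 0.36, adjusted p = 2.22e-06. Igkv10-94, 95.4% identical to Igkv10-96, was instead high in WT replicate 2, with 53.03, 11265 and 66.7 in WT, 305, 203 and 1274 in p47phox-/- and 17.3, 107 and 0.895 in gp91phox-/-, and did not pass (-4.48, SE 1.82, adjusted p = 0.172). Igkv4-59 held 1185, 5574 and 83.2 in WT, 592, 258 and 16.2 in p47phox-/- and 46.4, 12.1 and 3.58 in gp91phox-/- (-5.86, SE 1.48, adjusted p = 0.0333), a call lost when any 1 of 4 libraries was left out, WT replicates 1 and 2 and gp91phox-/- replicates 2 and 3 (adjusted p up to 0.138 over all alternatives). Igkv3-10 varied widely within each genotype, at 7.46, 989 and 22.9 in WT, 385, 7.03 and 4127 in p47phox-/- and 0, 222 and 0 in gp91phox-/-, and passed in no comparison.

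Igkv6-25 went against this pattern. It held 24.03, 55.1 and 171 in WT, 367, 77.4 and 1.91 in p47phox-/- and 130.1, 859.8 and 233 in gp91phox-/-, and though its log2 fold change in gp91phox-/- versus WT did not pass the test (2.26, SE 1.38, adjusted p = 0.388), it was the top kappa V segment of all 3 gp91phox-/- libraries. There it took 13.8%, 39.1% and 32.7% of kappa V reads (95% Wilson intervals 11.8% to 16.0%, 37.6% to 40.7% and 29.5% to 36.0%), against 0.0861% to 0.957% in WT and 0.00789% to 1.05% in p47phox-/-. Igkv6-25 was singled out after its values were seen. It shares 50.7% of its stretches of 50 bases with other segments, mostly with Igkv6-17, to which it is 95.7% identical. Family sums avoid part of that ambiguity: the Igkv6 family took 7.11% ± 2.00 of kappa V reads in WT, 7.42% ± 5.65 in p47phox-/- and 34.6% ± 10.7 in gp91phox-/- (SD, n = 3). The Igkv1 family went the other way, with 30.8% ± 4.66, 18.0% ± 3.86 and 4.504% ± 3.404 (SD, n = 3). In both families the 3 gp91phox-/- libraries lay outside the range of the other 6. The Igkv6 sum includes Igkv6-25 itself, so it is not separate support. In gp91phox-/- the family took 23.7%, 45.2% and 34.9%, of which Igkv6-25 made up most (13.8%, 39.1% and 32.7%). The sum therefore does not show a shift of the other Igkv6 members.

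**Figure D4:**
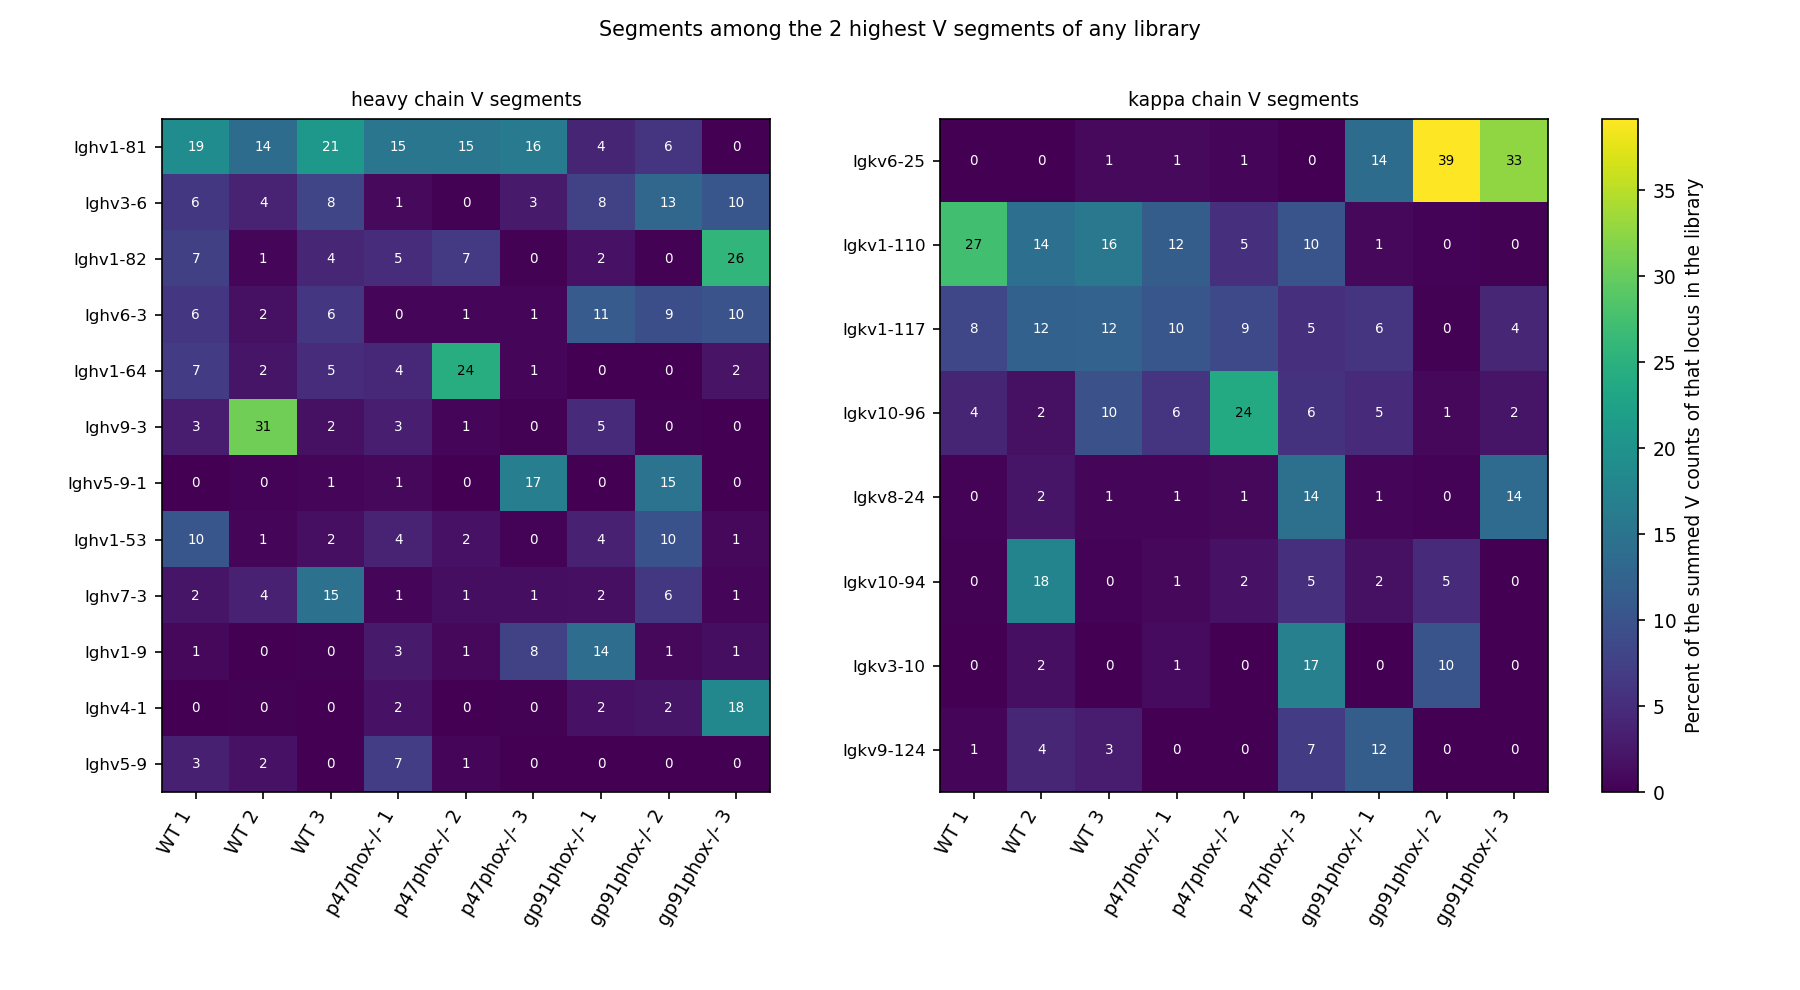
Percent of the V counts of the heavy (left) and kappa (right) locus taken by each segment that was among the top 2 of any library, with 1 column per library and values rounded to whole percent. Igkv6-25 is at 14%, 39% and 33% in gp91phox-/- and at 0% or 1% elsewhere, and single bright cells mark segments high in 1 library, such as Ighv9-3 in WT replicate 2.

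Which V segment led differed from library to library. The top heavy V segment was Ighv1-81 in WT replicates 1 and 3 (19.1% and 20.8% of heavy V reads) and in p47phox-/- replicate 1 (15.4%). It was Ighv9-3 in WT replicate 2 (30.6%), Ighv1-64 in p47phox-/- replicate 2 (24.3%) and Ighv5-9-1 in p47phox-/- replicate 3 (16.8%). In gp91phox-/- it was Ighv1-9 (13.9%), Ighv5-9-1 (15.0%) and Ighv1-82 (25.8%), shares of 732, 2190 and 469 reads in all, with 95% Wilson intervals of up to 3.95 percentage points to each side. The coefficient of variation between the 3 WT libraries had a median of 111% over 112 V segments and of 58.3% over 10 constant genes, and in p47phox-/- of 110% over 103 V segments and 42.0% over 9 constant genes (segments with a group mean under 50 were left out). In WT 11 V segments stood at 0 in 1 library and at 100 or more in another, and in p47phox-/- 29 did.

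The V segments with reads were counted at full and at equal depth. Of 69 heavy V segments 58 to 67 had reads in WT libraries, 52 to 66 in p47phox-/- and 26 to 49 in gp91phox-/-. When each library was thinned to the 469 heavy V reads of the shallowest, gp91phox-/- replicate 3, the expected numbers were 36.7 to 46.5, 36.8 to 49.7 and 26 to 39.4. For kappa, 64 to 69, 54 to 66 and 34 to 53 segments had reads, and at 799 reads 47.8 to 49.2, 42.0 to 54.5 and 34 to 50.9 were expected. The thinned ranges of p47phox-/- and gp91phox-/- thus overlap those of WT in both loci, and gp91phox-/- replicate 3 is the lowest in both loci.

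Among heavy V families the share of Ighv1 overlapped between WT and gp91phox-/-, and those of Ighv2, Ighv4 and Ighv6 did not. Ighv1, the largest mouse family, took 50.05% ± 10.9 of heavy V reads in WT, 67.6% ± 8.78 in p47phox-/- and 42.4% ± 11.01 in gp91phox-/- (SD, n = 3). Ighv6 took 5.33% ± 1.963, 2.51% ± 1.66 and 10.8% ± 0.737 (SD, n = 3), and Ighv3 took 7.14% ± 3.60, 6.27% ± 2.71 and 11.02% ± 1.95 (SD, n = 3). By position, the 57 of 113 annotated V genes nearer to the J segments took 51.7% ± 5.99 of heavy V reads in WT, 37.4% ± 12.3 in p47phox-/- and 62.5% ± 3.75 in gp91phox-/- (SD, n = 3). In kappa the nearer 50 of 100 took 33.8% ± 12.1, 46.0% ± 6.27 and 62.6% ± 17.8 (SD, n = 3), and the segment Igkv6-25 is among them.

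Heavy V reads also stood lower against heavy constant reads in gp91phox-/-. The ratio of summed heavy V to heavy constant normalized counts was 0.298, 0.316 and 0.306 in WT, 0.306, 0.169 and 0.305 in p47phox-/- and 0.0962, 0.139 and 0.0956 in gp91phox-/-. With Ighm left out it was 0.331 to 0.351, 0.249 to 0.348 and 0.228 to 0.274. For kappa V to Igkc the ratio was 0.939 to 1.01, 0.730 to 0.995 and 0.748 to 0.839. The gp91phox-/- libraries are below all WT libraries in each of the 3 ratios, and the gap was widest where Ighm is counted.

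All 3 lambda V segments fell in gp91phox-/-. Iglv1 held 1776, 5889.7 and 2588 in WT, 681, 477 and 718 in p47phox-/- and 22.7, 129 and 22.4 in gp91phox-/- (-6.17, SE 0.59, adjusted p = 5.20e-05), Iglv2 held 894, 234 and 142 in WT, 6.71, 66.8 and 36.2 in p47phox-/- and 4.55, 3.62 and 0 in gp91phox-/- (-6.72, SE 0.96, adjusted p = 0.00119), and Iglv3 (chr16:19241207-19241690) held 31.5, 140.2 and 257 in WT, 32.7, 15.8 and 30.5 in p47phox-/- and 0, 0 and 2.68 in gp91phox-/- (-6.098, SE 0.89, adjusted p = 0.00145). Lambda was also the locus in which p47phox-/- stood lowest against WT. Summed lambda counts were 5672, 12268 and 6157 in WT and 2019, 2048 and 2227 in p47phox-/-, with no overlap and a WT mean 3.83 times higher, or 2.82 times without WT replicate 2. In p47phox-/- 5 of 8 lambda segments lay below WT in every library (Iglc1, Iglc2, Iglj1, Iglv1, Iglv2), where 8.49% of all genes did, and 0 of 8 passed the test. Lambda V took 9.24%, 8.92% and 14.3% of light-chain V reads in WT, 2.03%, 5.12% and 3.15% in p47phox-/-, and 2.81%, 5.68% and 3.39% in gp91phox-/-, so both knockouts lay below WT in every library. Per kilobase, lambda made up 10.5%, 8.93% and 15.8% of light constant counts in WT, 3.67%, 9.73% and 5.85% in p47phox-/- and 4.41% to 4.44% in gp91phox-/-.

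The J segments had few reads. Ighj4 (chr12:113428514-113428567) held 68.8, 295 and 64.9 in WT, 128, 65.1 and 132 in p47phox-/- and 6.37, 9.05 and 8.05 in gp91phox-/- (-3.66, SE 0.59, adjusted p = 0.00276 in gp91phox-/- versus WT), with no overlap. Ighj1 (chr12:113429781-113429833) held 62.1, 137 and 35.7 in WT, 79.7, 97.6 and 45.7 in p47phox-/- and 20.02, 16.3 and 5.37 in gp91phox-/- (-2.37, SE 0.63, adjusted p = 0.0414), a call lost in 8 of 23 alternative settings. Igkj5 held 32.3, 162 and 82.3 in WT, 92.3, 36.05 and 50.5 in p47phox-/- and 0, 8.45 and 0.895 in gp91phox-/- (-4.88, SE 0.88, adjusted p = 0.00547). Igkj2 held 43.9, 125 and 37.5 in WT, 63.8, 36.05 and 67.6 in p47phox-/- and 1.82, 4.22 and 0 in gp91phox-/- (-4.62, SE 0.77, adjusted p = 0.00329). Igkj1 and Igkj4 fell too, and Igkj3, the kappa J segment without the motif shown above, did not pass (-4.81, SE 1.39, adjusted p = 0.0589). Ighj2, Ighj3, Iglj1 and Iglj2 did not pass either. Iglj1 held 19.9, 65.4 and 21.9 in WT, 17.6, 0 and 0 in p47phox-/- and 0.9099, 1.81 and 0.895 in gp91phox-/-, and Iglj2 held 9.94, 16.9 and 18.3 in WT, 14.3, 14.1 and 0 in p47phox-/- and 0, 0 and 0.895 in gp91phox-/-, both with every gp91phox-/- library below every WT library. The J coding sequences printed above are 38 to 54 bases long, and a read counted on them may also cover the neighbouring V or intron.

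Against p47phox-/-, 65 of 163 segments fell in gp91phox-/- and 0 rose, where 9.93% of all genes passed, 5.96% lower and 3.97% higher. This comparison shares its gp91phox-/- libraries with the one against WT, so the 2 are not independent. The median log2 fold change was -3.70, and 76 segments had every gp91phox-/- library below every p47phox-/- library (17.3% of all genes). Igha changed by -4.19, SE 0.56, adjusted p = 0.00076, Ighm by -1.54, SE 0.22, adjusted p = 0.00103, Ighd by -5.12, SE 0.396, adjusted p = 1.06e-05 and Igkc by -4.01, SE 0.48, adjusted p = 0.000351. Among V segments the largest falls were of Igkv1-110 (-8.13, SE 0.69, adjusted p = 2.27e-05), Ighv3-5 (-7.91, SE 1.39, adjusted p = 0.00389), Ighv1-64 (-7.83, SE 0.85, adjusted p = 0.000151), Ighv1-81 (-7.56, SE 1.196, adjusted p = 0.00212) and Igkv4-91 (-7.41, SE 0.82, adjusted p = 0.000181). Igkv4-91 had its highest mean in p47phox-/-, where it overlapped WT, with 48.9, 327 and 27.4 in WT, 1211, 228 and 519 in p47phox-/- and 2.73, 1.81 and 1.79 in gp91phox-/-. Values above 0 were seen for 6 segments that did not pass (Igkv2-112, Igkv6-25, Ighv1-77, Igkv4-86, Igkv13-85 and Ighv4-1).

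Between p47phox-/- and WT few segments differed. In limma 3 of 163 passed, 1 higher and 2 lower (1.84% of segments against 1.12% of all genes, of which 0.625% were higher and 0.5% lower), and the median log2 fold change was -0.78 against -0.02 over all genes. Every p47phox-/- library lay below every WT library for 15 segments (9.20%, against 8.49% of all genes) and above for 4 (9.25% of all genes), so these counts are near or under the background. Among the 4 above, Ighv1-63 held 19.1, 11.7 and 0 in WT, 147, 41.3 and 22.9 in p47phox-/- and 5.46, 0 and 0 in gp91phox-/-, and Igkv5-45 held 6.63, 11.7 and 0 in WT, 83.1, 12.3 and 149 in p47phox-/- and 0 in each library in gp91phox-/-, and neither passed. Among the 15 below, Ighv1-77 and Igkv2-112 had no read in any p47phox-/- library, which makes them at least 46.1- and 56.6-fold lower than in WT by a floor of 3 reads over the group, and they did not pass either. The main classes showed no difference past the spread: Igha changed by -0.94, SE 0.56, adjusted p = 0.452, Ighm by 0.01, SE 0.22, adjusted p = 0.987 and Igkc by -0.47, SE 0.48, adjusted p = 0.6797.

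Ighv3-5 was the segment that rose. It held 0 in each library in WT, 1048, 23.7 and 1187 in p47phox-/- and 0, 1.21 and 0 in gp91phox-/- and thus had no read in any WT library. Over the group, 2522 p47phox-/- reads against 0 in WT make it at least 911-fold higher, with 3 reads over the 3 WT libraries as the floor. The log2 fold change of 8.29, SE 1.39, adjusted p = 0.0152 depends on the added 1. Replicates 1 and 3 carry nearly all of the reads, and the call was lost without either of them or without WT replicate 3 (adjusted p = 0.0514, 0.103 and 0.0603). It was also lost without the mean-variance trend (adjusted p = 0.0649). Ighv3-5 is 85.0% identical to Ighv3-6 and 86.3% to Ighv3-4, and shares 5.3% of its stretches of 50 bases with other segments.

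Ighv6-3 and Ighg3 were the 2 that fell. Ighv6-3 held 1654, 1213 and 1319 in WT, 146, 44.8 and 134 in p47phox-/- and 74.6, 124 and 42.04 in gp91phox-/- (-3.84, SE 0.46, adjusted p = 0.00301). In normalized counts WT was far above both knockouts in every library, and the knockouts did not differ past the spread (-0.39, SE 0.46, adjusted p = 0.629). The share of heavy V reads on Ighv6-3 was 1.82% to 6.24% in WT, 0.49% to 0.734% in p47phox-/- and 9.36% to 11.2% in gp91phox-/-. By share, Ighv6-3 was thus lower in every p47phox-/- library and higher in every gp91phox-/- library than in any WT library. Its call was lost only when p47phox-/- replicates 2 and 3 were left out together (adjusted p = 0.0522). Ighg3 in p47phox-/- was given above, and its call was lost without any 1 of the WT libraries or p47phox-/- replicate 3 (adjusted p 0.0587 to 0.06797). The Ighg3 call was also lost without the mean-variance trend (adjusted p = 0.089). It was lost too with p47phox-/- replicates 2 and 3 left out together, which leaves 1 p47phox-/- library (log2 fold change -4.92). The ratio of Ighg3 to Ighg2b was 0.491, 0.143 and 0.433 in WT and 0.0178, 0.0659 and 0.0274 in p47phox-/-, lower in every p47phox-/- library than in any WT library.

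**Figure D5:**
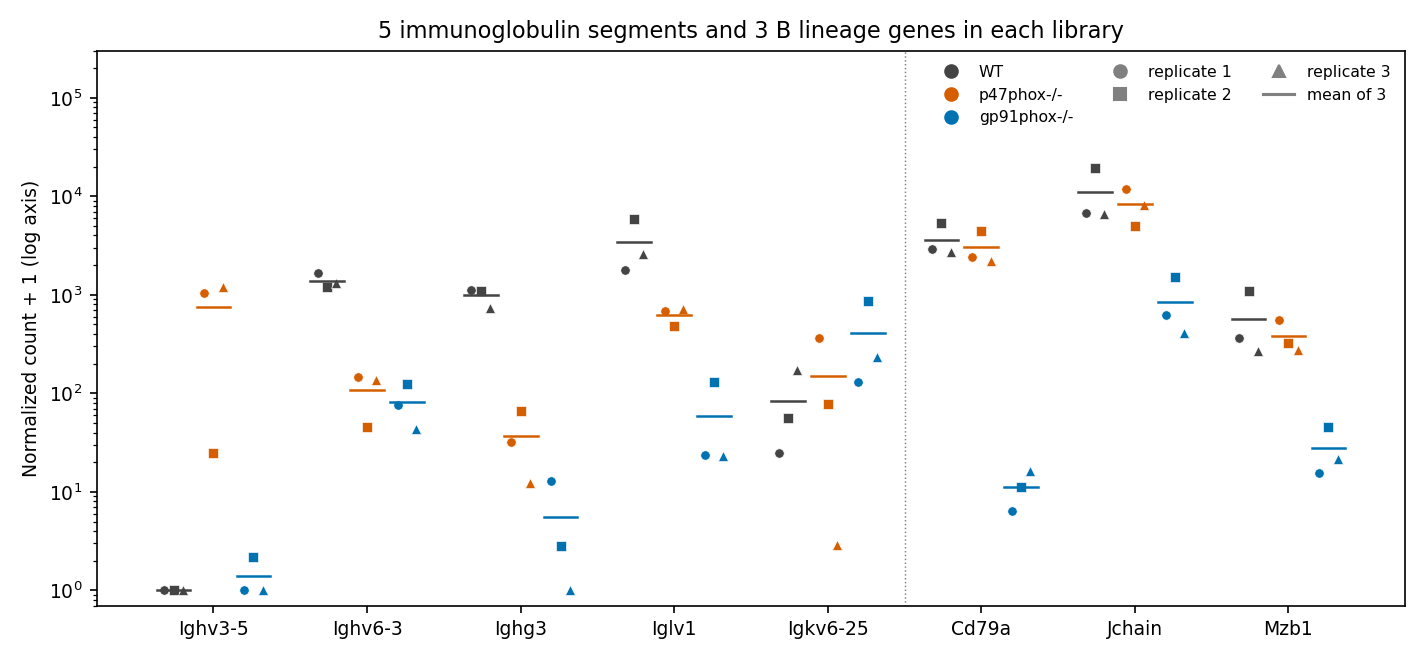
Normalized count plus 1 (log axis) of 5 segments (left of the dotted line) and 3 B lineage genes in each library, with a line at the mean of 3. Ighv3-5 is at 0 in WT and high in p47phox-/- replicates 1 and 3, Ighv6-3 and Ighg3 are low in both knockouts, and Igkv6-25 has its highest mean in gp91phox-/-, whose Cd79a, Jchain and Mzb1 lie below the other genotypes.

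Genes that work with the segments were read from lists, whose counts stand beside 4.53% of all genes lower and 2.53% higher in gp91phox-/- versus WT, and 0.5% lower and 0.625% higher in p47phox-/- versus WT. Of 16 tested genes of B cell identity and the B cell receptor, 14 fell in gp91phox-/- versus WT and 0 rose (median -6.38), and in p47phox-/- 1 rose (Blnk, an adaptor of receptor signalling, 0.68, SE 0.14, adjusted p = 0.0343) and 0 fell. Cd72, a B cell coreceptor that macrophages also express, had the highest level and did not pass (-0.13, SE 0.23, adjusted p = 0.8105), while in gp91phox-/- Blnk (-0.74, SE 0.14, adjusted p = 0.00613) and the inhibitory coreceptor Cd22 (-1.004, SE 0.15, adjusted p = 0.00155) fell by small steps. Of 16 tested genes of plasma cells and antibody secretion, 6 fell in gp91phox-/- and 0 rose: Jchain, Mzb1, Derl3, Txndc5, Eaf2 and Pou2af1. Jchain, whose product joins IgA and IgM into polymers, held 6743, 19473 and 6603 in WT, 11773, 4992 and 8226 in p47phox-/- and 618, 1521 and 404 in gp91phox-/- (-3.72, SE 0.495, adjusted p = 0.000707). Hsp90b1, Slamf7 and Xbp1, the others with the highest levels, did not pass. The ratio of Jchain to Igha was 0.0888 to 0.116 in WT, 0.129 to 0.231 in p47phox-/- and 0.245 to 0.288 in gp91phox-/-, so Jchain stood higher against Igha in every gp91phox-/- library than in any other. In p47phox-/- versus WT 1 gene of this list fell (Creld2, an endoplasmic reticulum protein, -0.73, SE 0.16, adjusted p = 0.0468), and 0 rose.

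Among genes of recombination and class switching, the DNA repair nuclease gene Dclre1c (0.26, SE 0.12, adjusted p = 0.219) and Apex1 (-0.26, SE 0.14, adjusted p = 0.322), which had the highest levels, did not pass in gp91phox-/- versus WT. Rag1, Rag2 and Dntt, which act during V(D)J joining in developing lymphocytes, were listed at 0 in every library. Of the surrogate light chain genes Vpreb3 alone was tested; it held 72.9, 144 and 41.1 in WT, 57.1, 43.96 and 80.03 in p47phox-/- and 0 in each library in gp91phox-/-, at least 116-fold lower in gp91phox-/- than in WT (329 reads in WT and 0 in gp91phox-/-, with the floor of 3 used for Ighv3-5). Igll1 and Vpreb2 were at 0 throughout, and Vpreb1, below the threshold, was at 0 in every WT and p47phox-/- library and at 0, 3.02 and 4.47 in gp91phox-/- (10 reads in all).

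Among 9 factors that act on immunoglobulin promoters and enhancers, 2 fell in gp91phox-/- versus WT (4.53% of all genes did), Pou2af1 (an octamer coactivator of B cells, -5.57, SE 0.29, adjusted p = 5.43e-07) and Tcf3 (the E2A gene, -0.64, SE 0.13, adjusted p = 0.00992), and 0 in p47phox-/-. Spi1, Irf8 and Pou2f2, the factors with the highest levels, did not pass in either. Of 11 tested immunoglobulin receptors 2 fell and 2 rose in gp91phox-/- versus WT (4.53% and 2.53% of all genes). Those that fell were Fcmr, the IgM receptor (-7.94, SE 0.36, adjusted p = 1.69e-07), and Fcer2a, the low-affinity IgE receptor (-7.39, SE 0.48, adjusted p = 2.92e-06). The activating IgG receptors Fcgr1 (0.65, SE 0.16, adjusted p = 0.0251) and Fcgr4 (0.91, SE 0.18, adjusted p = 0.00897) rose, and Fcgr2b, the inhibitory IgG receptor and the highest of the list, did not pass (0.43, SE 0.14, adjusted p = 0.0893).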

How the data were processed

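RNA of 9 libraries (3 genotypes, 3 libraries each) was extracted with the RNeasy MicroKit and sequenced as read pairs on a NovaSeq6000, per the labels' protocols. Reads were demultiplexed with bcl2fastq 2.19, trimmed with Cutadapt, mapped to mm10 with STAR 2.5.2b and counted with featureCounts, per the labels' protocols. DESeq2 is named in the submitters' processing notes, with no role given. Library strand, annotation and the treatment of reads that match several genes are not given in the sources used here. The authors deposited 1 signal value per gene and library, a normalized count. Dividing each column by its smallest step gave whole reads for 100% of the values checked (tolerance 0.01), so the values were taken as reads divided by a size factor. The check covered 12134 to 16037 values per library and left out zeros and the highest counts. No value column was without a sample.

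Values were tested with limma 3.58.1 (R 4.3.3) on log2(normalized count + 1), 1 fit of 3 genotypes with a mean-variance trend, over the 14404 genes with at least 10 in at least 3 libraries, with Benjamini-Hochberg adjustment over all of them; every adjusted p given is from this fit unless an alternative is named, and genes with an adjusted p under 0.05 are said to rise or fall. The test was also run on simulated counts with the same dispersion for every gene. These do not show how it performs on V segments, whose spread between libraries was wide. Alternatives numbered 23 and included edgeR 4.0.16 and DESeq2 1.42.0 on the recovered reads. The p-values measure the spread between these libraries, which may be technical; intervals and floors cover counting error only. Same-numbered replicates did not pair (correlation of deviations -0.04 to 0.08).

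The segments and gene lists were chosen with earlier results of these data known, and 2 listed genes are left out of the lists and not reported here. Segments were named by rule: every constant gene, the 6 heavy, 6 kappa and 3 lambda V segments and the 2 J segments per locus with the highest mean, and per comparison and direction the 5 largest changes among those called with a mean of at least 50; list genes named are those of highest mean unless they passed. Segments outside it (Igkv6-25, Igkv8-21, Ighv4-1, Ighv1-9, Ighv5-9-1, Ighv1-82, the other J segments, and those listed as uncalled or below the threshold) were chosen after their values were seen, as were the list genes outside it. Coordinates and sequences are from GENCODE M21 (GRCm38). The ambiguity of each segment is the share of its 50-base windows that occur in another immunoglobulin segment.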

Additional observations from a re-analysis of the deposited data

Results flagged for a closer look

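The named segments for which the effects of the 2 knockouts differed, by the test of gp91phox-/- against p47phox-/- itself (limma, adjusted p under 0.05), were all lower in gp91phox-/-. Among V segments the log2 differences were -8.13 for Igkv1-110, -7.91 for Ighv3-5, -7.83 for Ighv1-64, -7.56 for Ighv1-81, -7.41 for Igkv4-91, -6.52 for Ighv1-26, -6.28 for Igkv10-96, -6.18 for Igkv1-117 and -3.52 for Ighv7-3. Those of the lambda V segments were -4.08 for Iglv3 and -3.89 for Iglv1. Heavy constant genes differed by -5.12 (Ighd), -4.19 (Igha), -3.81 (Ighg2b), -3.17 (Ighg3) and -1.54 (Ighm). Light constant genes differed by -5.76 (Iglc3), -4.57 (Iglc2), -4.07 (Iglc1) and -4.01 (Igkc), and J segments by -4.48 (Igkj2), -4.43 (Igkj5), -3.57 (Ighj4) and -2.44 (Ighj1). The calls of Ighg3, Ighj1 and Ighv7-3 were lost in 12, 8 and 14 of the 23 alternative settings, and those of Iglv3, Iglc3 and Igkj5 in 2, 1 and 1.

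Some V segments below the threshold were above every WT library in at least 1 knockout library. Only this direction was searched, so the list does not show which such segments were high in WT instead. In WT replicate 2 the summed normalized count was 426906 over all 420 names and 422786 over the 163 segments. The same sums were 201287 and 199637 in p47phox-/- replicate 1, and 16363 and 15975 in gp91phox-/- replicate 2. In p47phox-/- replicate 1, Ighv1-31 stood at 305 normalized counts (highest WT value 13.7), Ighv1-84 at 261 (9.94), Igkv6-13 at 250.1 (24.97), Ighv3-1 at 184 (21.03), Ighv2-5 at 178 (8.81) and Ighv5-2 at 169 (10.1). In p47phox-/- replicate 2 Igkv4-69 stood at 127 (9.12), and in replicate 3 Ighv1-36 at 159 (1.47) and Igkv14-130 at 66.7 (8.29). In gp91phox-/-, Igkv4-62 stood at 162 in replicate 1 (2.94), and in replicate 2 Ighv2-5 at 188 (8.81) and Ighv3-4 at 80.8 (7.34). Ighv1-84 and Ighv1-36 each exceeded the highest WT value in a second p47phox-/- library, at 16.7 and 10.07, and none of these segments was tested.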

How the results depend on the processing

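Of the 105 log2 fold changes of named segments, none that passed the test turned its direction under the 23 alternatives, and 19 that had not passed changed sign, in 51 cases over the settings. In p47phox-/- versus WT the count of segments called moved from 3 to 5 with a pseudocount of 5, 6 when the fit held only the 2 groups compared, 1 without a mean-variance trend, 1 without p47phox-/- replicates 2 and 3, and 12 with DESeq2 on recovered reads (3 higher, 9 lower, Iglc1 and Iglv1 to Iglv3 among the lower). Leaving out single libraries gave 1 (without WT replicate 3 or p47phox-/- replicate 3) to 5 (without gp91phox-/- replicate 2). In gp91phox-/- versus WT the count of 68 moved to 39 without the trend and was 51 to 79 when single libraries were left out; without WT replicate 2, 1 of the 51 was higher (Igkv8-21, log2 fold change 3.35, adjusted p = 0.0277). In gp91phox-/- versus p47phox-/- the count of 65 moved to 42 without the trend and was 47 to 65 with single libraries left out. edgeR called 3, 71 and 62 segments, and DESeq2 12, 90 and 85. Without p47phox-/- replicates 2 and 3 the gp91phox-/- comparisons gave 88 against WT and 54 against p47phox-/-. With the replicate block the counts were 3, 73 and 74, although the numbers did not pair the samples. Among the named segments 66 calls were lost and 35 gained over the settings of the 3 comparisons. In p47phox-/- versus WT, Iglc1 and Iglv1 fell in the fit of 2 groups (adjusted p = 0.0188 and 0.0199), without gp91phox-/- replicate 2 (0.0170 and 0.0167) and with DESeq2 (0.0337 and 0.0403). The cause of these changes was not tested. TMM scaling moved the median of all genes in gp91phox-/- versus p47phox-/- to 0.11. Depth limits the V segments of gp91phox-/- most, where the heavy locus held 469 to 2190 V reads and 100 of 141 V segments were at 0 in at least 1 library.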

Other observations

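Of the 3 p47phox-/- libraries, replicate 2 held the lowest Igha count (21649) and the highest Cd79a count (4439 against 2412 and 2220). Its ratio of Igha to Cd79a was 4.88, against 34.1 and 28.8 in the other p47phox-/- libraries and 20.9 to 35.0 in WT, and 92.2 to 516 in gp91phox-/-. In the same library Ighm made up 39.4% of the heavy constant total per kilobase, and heavy V stood at 0.169 of heavy constant counts, both between the WT and the gp91phox-/- values. Its Jchain to Igha ratio of 0.231 was likewise above the other WT and p47phox-/- libraries and below gp91phox-/-.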
